A study of Mus musculus with 7 samples.

Results

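The enzymes of the hexosamine pathway were followed in mouse skin tumour cells. The set holds 8 genes, namely Gfpt1, Gfpt2, Gnpnat1, Pgm3, Uap1, Nagk, Ogt and Gne, out of 18193 genes on the arrays. All 8 were measured, by 26 of the 34945 probe sets that the platform annotation ties to a single gene. The set was chosen by the RMA values of Gfpt1, which did not overlap between the tumour types, so its differences between carcinoma and papilloma are given as a description and no test of these genes in that contrast is reported. Tumours had been induced in mice with DMBA, a carcinogen, and TPA, a promoter of growth, and tumour cells carrying CD34 and Epcam were sorted from them. RNA was amplified, labelled with biotin and hybridised to Affymetrix mouse 430 PM strip arrays, 4 from carcinomas (malignant, arrays 1, 2, 3 and GFP) and 3 from papillomas (benign, arrays 1, 2 and GFP). The descriptions place Nr2f2 before the tumour type in all 7 samples and give no genotype, strain, age or time, nor whether animals were pooled. 1 array of each tumour type carries GFP where the others have a number, and the labels do not explain this tag. Nothing in the labels says that arrays came from separate animals, so every p-value measures only the spread between these arrays.

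The hexosamine pathway turns a small part of the cell's glucose into UDP-N-acetylglucosamine (UDP-GlcNAc), the donor sugar for N-glycans, hyaluronan, heparan sulfate and O-GlcNAc. Gfpt1 and Gfpt2 are alternative enzymes for the entry step, which joins fructose 6-phosphate with nitrogen from glutamine and limits the flow. Gnpnat1, Pgm3 and Uap1 then acetylate the sugar, move its phosphate and couple it to UTP. Nagk returns free N-acetylglucosamine to the pathway, Ogt places O-GlcNAc on proteins of the nucleus and cytoplasm, and Gne takes UDP-GlcNAc into sialic acid synthesis. Gfpt1 is a known target of the endoplasmic reticulum (ER) stress response.

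All values are RMA values on the log2 scale, so a difference of 1 is a doubling, and each gene is shown through the probe set of highest mean level unless another is named. Over all probe sets, array medians lay between 5.38 and 5.51 and upper quartiles between 7.32 and 7.79. The GFP arrays stood apart from the others. The log2 of the summed signal of 12 endothelial markers was 14.83 to 14.90 in the GFP arrays and 9.39 to 10.05 in the untagged arrays, with 12 of 12 markers above every untagged array. For 12 fibroblast markers it was 15.46 to 16.15 against 11.39 to 12.92 (11 of 12 above every untagged array), and for 10 immune markers 11.37 to 11.69 against 9.18 to 10.11 (5 of 10). For 12 epithelial markers it was 14.94 to 14.96 against 15.43 to 15.99 (7 of 12 below every untagged array). Cdh5, a cadherin of endothelial junctions, read 11.02 to 11.30 in the GFP arrays and 4.23 to 5.47 elsewhere. Of the markers used for sorting, Cd34, which endothelial cells carry too and which stands in the epithelial list, read 11.66 to 11.73 against 8.76 to 10.80, and Epcam 8.28 to 9.59 against 10.52 to 11.97. The 3' control probe set of Gapdh exceeded the 5' one by 3.19 in both GFP arrays and by -0.04 to 0.06 in the others, a measure that grows as labelled RNA shortens. The part of other cell types and of RNA length in the differences by tag below was not tested. In such bulk samples fewer cells of a type and less RNA per cell cannot be told apart. Between the tumour types the summed levels overlapped for all 4 marker lists. The mean was higher in carcinoma for 12 of 12 epithelial markers and lower for 12 of 12 endothelial markers. These means are not balanced for the tag, which 1 of 4 carcinoma and 1 of 3 papilloma arrays carry. A difference by tag therefore enters them, and no difference in cell types between the tumours is read from them.

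**Figure D1:**
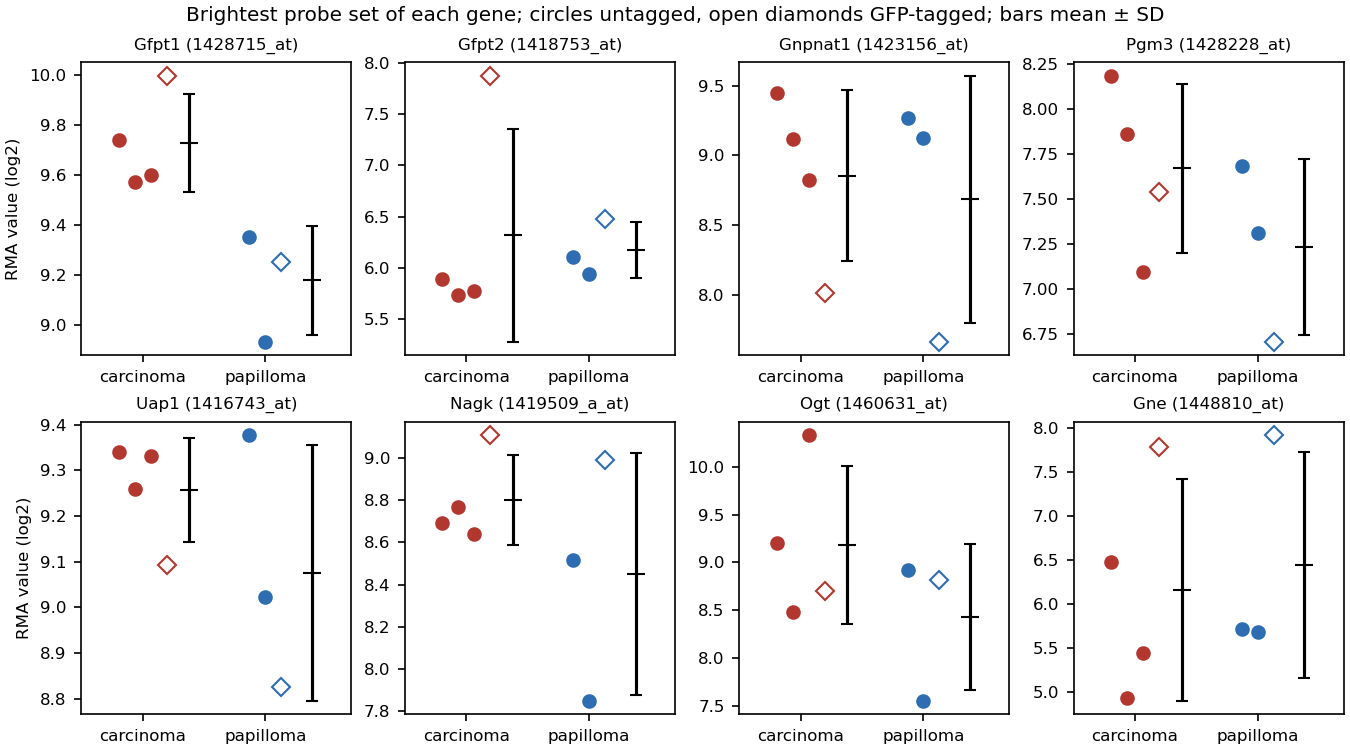
RMA values (log2, y axis, each panel with its own scale that does not start at 0) of the brightest probe set of the 8 genes in carcinoma and papilloma arrays (x axis). Circles are untagged arrays, open diamonds GFP-tagged arrays, and bars give the mean ± SD (n = 4 and 3). The tumour types part for Gfpt1 alone among the 8 genes, and the diamonds stand apart from the circles for Gfpt2, Gnpnat1, Nagk and Gne.

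The 2 entry enzymes are shown with the 250 bases before their annotated start (RefSeq, build GRCm38.p6), because they catalyse the same step and differed in their patterns. Gfpt1 is given from chr6:87042596-87042845 and Gfpt2 from chr11:49793905-49794154, both on the plus strand. Capitals mark CCAAT, a box bound by the factor NF-Y, and CCACG, the end of the ER stress element, on either strand (ATTGG and CGTGG when read on the opposite strand).
Gfpt1: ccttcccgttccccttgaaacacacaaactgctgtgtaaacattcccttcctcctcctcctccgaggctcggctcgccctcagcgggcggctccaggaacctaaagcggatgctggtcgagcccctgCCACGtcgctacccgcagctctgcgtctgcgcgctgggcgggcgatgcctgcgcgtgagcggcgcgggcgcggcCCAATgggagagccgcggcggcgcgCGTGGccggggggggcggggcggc
Gfpt2: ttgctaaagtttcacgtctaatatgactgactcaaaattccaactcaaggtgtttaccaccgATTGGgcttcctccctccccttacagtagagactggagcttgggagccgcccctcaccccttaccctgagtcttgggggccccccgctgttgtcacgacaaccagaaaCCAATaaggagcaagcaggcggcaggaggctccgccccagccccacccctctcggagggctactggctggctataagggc
Gfpt1 held CCAAT at 1 position and CCACG at 2, and Gfpt2 held CCAAT at 2 and CCACG at 0. CCAAT lay in 33.8% and CCACG in 28.3% of 32851 promoter windows of this length, and in 4 and 3 of the 9 windows of the 7 hexosamine genes found in the table. The whole ER stress element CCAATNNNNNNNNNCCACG, which contains both, lay in 0.113% of windows and in 0 of these 9. TGACGTG, a core of the unfolded protein response element, lay in 1.65% of windows and TATAAA in 12.4%, and in 0 of these 9. GGGCGG, the GC box, lay in 32.7% of all windows and in 7 of the 9, with 4 matches in Gfpt1 and 2 in Gfpt2. A match is a description of the letters and not a sign of binding.

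Gfpt1, the entry enzyme used in most tissues, was higher in every carcinoma array than in any papilloma array. Its brightest probe set (1428715_at) read 9.74 in carcinoma 1, 9.57 in carcinoma 2, 9.60 in carcinoma 3 and 9.998 in carcinoma GFP. In papilloma 1, papilloma 2 and papilloma GFP it read 9.35, 8.94 and 9.26. Even the lowest carcinoma array lay above the highest papilloma array. The carcinoma mean was 9.73 ± 0.19 (SD, n = 4). The papilloma mean was 9.18 ± 0.22 (SD, n = 3), lower by 0.55 log2 units, or 1.46-fold. This separation is what chose the set. All carcinoma arrays lay above all papilloma arrays for 92 of the 18193 genes, or 0.506%, and below them for 166, or 0.912%, so that the tumour types did not overlap for 1.42%. Among the 8 genes this held for 1, Gfpt1, and nothing is read from that count.

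A second probe set of Gfpt1, 1449268_at, was parted in the same way. It read 7.40, 6.96, 7.03 and 7.44 in carcinoma 1, 2, 3 and GFP, and 6.83, 6.33 and 6.31 in papilloma 1, 2 and GFP. Here the carcinoma mean was 7.21 ± 0.24 (SD, n = 4), and the papilloma mean, 6.49 ± 0.29 (SD, n = 3), lay 0.72 below it. The carcinoma array exceeded the papilloma array of the same label by 0.39 (arrays 1), 0.64 (arrays 2) and 0.74 (GFP) on the brightest probe set, and by 0.57, 0.63 and 1.12 on the second. Among the untagged arrays alone the differences were 0.495 and 0.55. The other 4 probe sets of the gene, 1420080_a_at, 1444329_at, 1418904_at and 1449725_at, lay below the median of every array in all 7 arrays, and their groups overlapped, with differences of 0.10, 0.30, -0.06 and 0.06. Averaging all 6 probe sets reduced the Gfpt1 difference to 0.28. By tag, the brightest probe set of Gfpt1 differed by 0.24 (SE 0.19, limma adjusted p = 0.425), and the GFP arrays were the highest carcinoma array and the middle papilloma array.

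**Figure D2:**
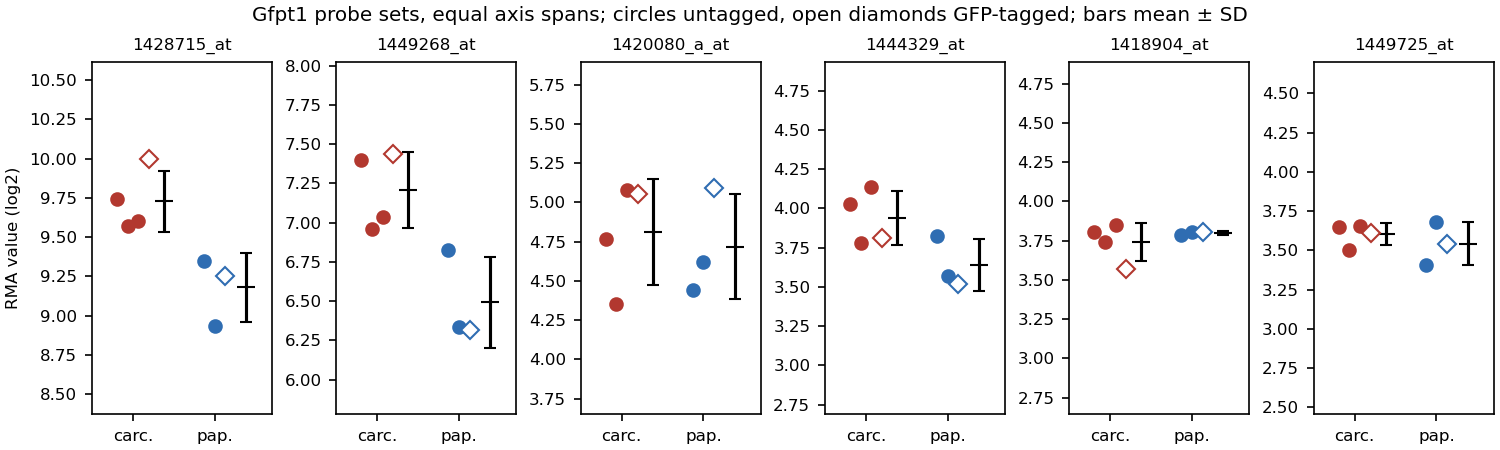
RMA values (log2, y axis) of the 6 Gfpt1 probe sets in carcinoma (carc.) and papilloma (pap.) arrays, each axis spanning the same number of log2 units and not starting at 0. Circles are untagged arrays, open diamonds GFP-tagged arrays, and bars the mean ± SD (n = 4 and 3). Carcinoma and papilloma arrays do not overlap on 1428715_at and 1449268_at and overlap on the 4 dim probe sets.

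Gfpt2, the second form of the entry enzyme, followed the tag and most of all 1 array. Its only probe set (1418753_at) read 7.88 in carcinoma GFP and 6.47 in papilloma GFP. In the untagged arrays it read 5.89, 5.74 and 5.78 in carcinoma 1, 2 and 3 and 6.11 and 5.95 in papilloma 1 and 2. Both GFP arrays lay above every untagged array, and carcinoma GFP lay 1.40 above papilloma GFP. Gfpt2 was higher in the tagged arrays by 1.31 (SE 0.35, limma adjusted p = 0.0421), or 2.48-fold, higher in 2 of 2 tagged arrays. The call was lost without carcinoma GFP, where the difference was 0.45 (limma adjusted p = 0.448), and also without carcinoma 1, 2 or 3 or papilloma 2 (limma adjusted p of 0.0845, 0.0895, 0.0711 and 0.0519). Without papilloma GFP the difference was 2.07. The tag difference was 2.07 within carcinoma and 0.45 within papilloma, and the test of that gap over all genes gave 1.63 (SE 0.36, limma adjusted p = 0.9998). That fit rests on 1 GFP array in each tumour type and nothing is read from it. Carcinoma exceeded papilloma by 0.14 over all arrays and lay below it by 0.23 in the untagged arrays (5.80 and 6.03).

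Gnpnat1, which acetylates glucosamine 6-phosphate, was lower in the tagged arrays. Probe set 1423156_at read 8.02 in carcinoma GFP and 7.67 in papilloma GFP. It read 9.45, 9.12 and 8.83 in carcinoma 1, 2 and 3 and 9.27 and 9.13 in papilloma 1 and 2. Both GFP arrays lay below every untagged array. The gene was lower by -1.31 (SE 0.22, limma adjusted p = 0.00821), or 2.47-fold, in 2 of 2 tagged arrays. All 4 of its probe sets had the lower mean in the tagged arrays, by 1.31, 1.51, 0.76 and 0.34 log2 units, and on 3 of them the GFP arrays lay below every other array. Without carcinoma GFP the difference was -1.53 and without papilloma GFP -1.11, and neither passed (limma adjusted p of 0.0713 and 0.105). The tumour types had means of 8.85 ± 0.61 (SD, n = 4) and 8.69 ± 0.88 (SD, n = 3) in carcinoma and papilloma, and in the untagged arrays carcinoma minus papilloma was -0.065.

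Pgm3, the mutase of the next step, had 1 probe set, 1428228_at. It read 8.19, 7.86, 7.09 and 7.54 in carcinoma 1, 2, 3 and GFP, and 7.68, 7.31 and 6.71 in papilloma 1, 2 and GFP. The groups overlapped, with carcinoma 3 below papilloma 1 and papilloma 2. Within the arrays of equal label carcinoma was higher by 0.51, 0.55 and 0.83, and the overall difference was 0.44. It was 0.17 without papilloma GFP, 0.26 without carcinoma 1 and 0.66 without papilloma 1. By tag the gene differed by -0.46 (SE 0.33, limma adjusted p = 0.391).

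Uap1, which makes UDP-GlcNAc itself, varied least among the brightest probe sets of the 8 genes, with an SD of 0.20 over the 7 arrays. Probe set 1416743_at read 9.34, 9.26, 9.33 and 9.09 in carcinoma 1, 2, 3 and GFP, and 9.38, 9.02 and 8.83 in papilloma 1, 2 and GFP. Carcinoma and papilloma overlapped and their means differed by 0.18. The bright probe sets of Uap1 ordered the arrays differently. On 1437490_x_at and 1456516_x_at, of a kind prone to cross-hybridisation, papilloma 2 was the highest array, at 9.02 and 8.87, whereas on 1416743_at only papilloma GFP lay lower. On these x_at probe sets papilloma had the higher mean, by 0.08 on each. By tag Uap1 differed by -0.29 (SE 0.17, limma adjusted p = 0.303), and 4 of its 5 probe sets had the lower mean in the tagged arrays. Both GFP arrays lay below every untagged array on 1437490_x_at (8.435 and 8.547 against 8.67 to 9.024). The same held on 1456516_x_at (8.354 and 8.404 against 8.486 to 8.873), while on 1416743_at tagged and untagged arrays overlapped.

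Nagk, the salvage kinase, was highest in the tagged arrays on its brighter probe set but did not pass the test. Probe set 1419509_a_at read 9.11 in carcinoma GFP and 8.99 in papilloma GFP. It read 8.69, 8.77 and 8.64 in carcinoma 1, 2 and 3, 8.52 in papilloma 1 and 7.85 in papilloma 2. The difference by tag was 0.60 (SE 0.23, limma adjusted p = 0.122). Among the untagged arrays the carcinoma arrays lay above both papilloma arrays, with a difference of 0.52, and papilloma GFP lay above every untagged carcinoma array. Without papilloma 2 the difference between the tumour types fell from 0.35 to 0.05. The dimmer probe set 1438800_at ordered the arrays differently, with carcinoma 3 highest at 6.21 and papilloma 1 lowest at 4.83. It did not show the pattern by tag, with 4.86 in carcinoma GFP, 5.81 in papilloma GFP and a difference of means of -0.03.

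Ogt, the O-GlcNAc transferase, had the largest difference between tumour types of the 8 genes, with wide spread inside both. Probe set 1460631_at read 9.21, 8.48, 10.33 and 8.70 in carcinoma 1, 2, 3 and GFP. It read 8.92, 7.55 and 8.82 in papilloma 1, 2 and GFP. Carcinoma 2 and carcinoma GFP lay below papilloma 1, so the groups overlapped, with means of 9.18 ± 0.83 (SD, n = 4) and 8.43 ± 0.76 (SD, n = 3). The difference of 0.75 was 0.31 without papilloma 2, 0.36 without carcinoma 3 and 1.1025 among the untagged arrays. A fit with the replicate label as a block gave the same 0.36. Carcinoma 3 is the only array with label 3, so it does not enter the difference in that fit. The probe sets agreed on the extreme arrays, since carcinoma 3 was highest on 5 of 5 and papilloma 2 lowest on 4 of 5. Within arrays of equal label carcinoma minus papilloma was 0.28 (arrays 1), 0.93 (arrays 2) and -0.12 (GFP) on 1460631_at. By tag Ogt differed by -0.06 (SE 0.60, limma adjusted p = 0.956). That value joins opposite differences, -0.64 within carcinoma and 0.58 within papilloma, each resting on 1 GFP array.

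Gne, the epimerase and kinase that opens sialic acid synthesis, had the largest difference by tag of the 8 genes. Probe set 1448810_at read 7.79 in carcinoma GFP and 7.93 in papilloma GFP. It read 6.48, 4.93 and 5.45 in carcinoma 1, 2 and 3 and 5.72 and 5.69 in papilloma 1 and 2. Both GFP arrays lay above every untagged array. Gne was higher in the tagged arrays by 2.196 (SE 0.39, limma adjusted p = 0.00986), or 4.58-fold, in 2 of 2 arrays. Its other probe set, 1455583_at, read 7.36 and 6.89 in the GFP arrays and 4.99 to 5.96 in the others. The difference was 2.17 within carcinoma and 2.22 within papilloma, which are also its values without papilloma GFP and without carcinoma GFP, and neither of these passed (limma adjusted p of 0.0909 and 0.128). Between tumour types the means were 6.16 ± 1.26 (SD, n = 4) and 6.45 ± 1.28 (SD, n = 3), the only lower carcinoma mean among the 8 genes over all arrays. The difference of -0.28 was -0.08 in the untagged arrays and -0.10 with the tag as covariate. It was 0.46 without papilloma GFP and -0.83 without carcinoma GFP. In the untagged arrays Gfpt2 (-0.23) and Gnpnat1 (-0.065) had the lower carcinoma mean too.

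**Figure D3:**
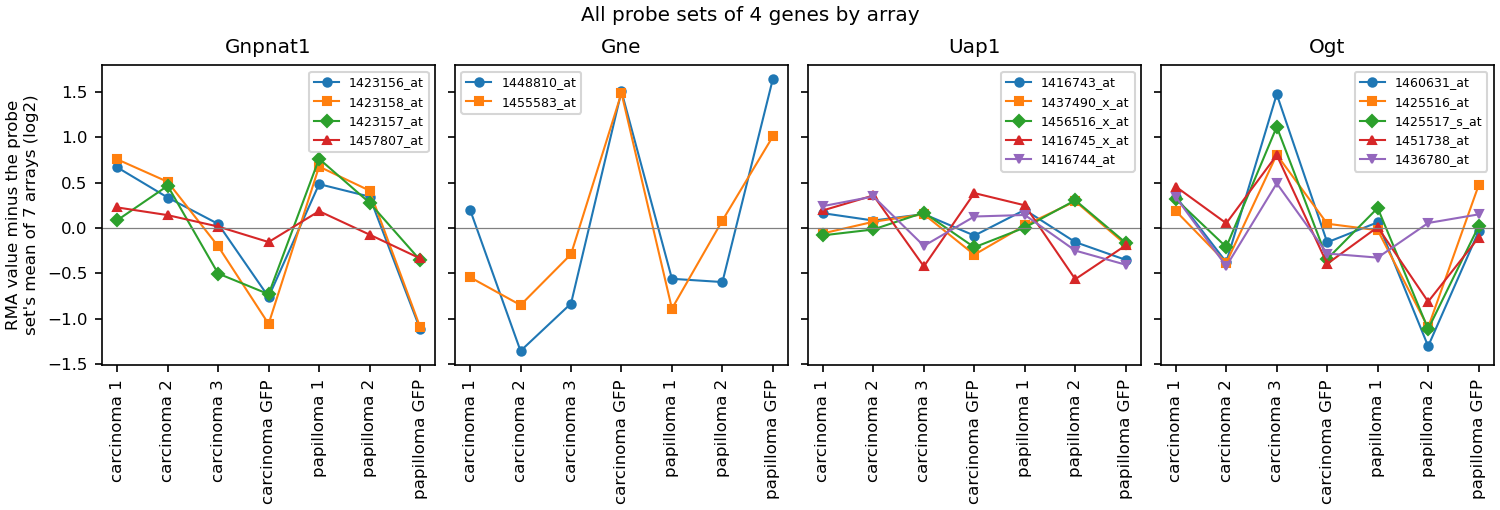
Every probe set of Gnpnat1, Gne, Uap1 and Ogt in the 7 arrays (x axis), as its RMA value minus its own mean over the arrays (log2, y axis, shared by the panels). Each line is 1 probe set, and lines join arrays only to guide the eye. Gnpnat1 is low and Gne high in both GFP arrays, the Uap1 probe sets part in papilloma 2, and those of Ogt are highest together in carcinoma 3.

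Set against the tag, 3 of the 8 genes passed at an adjusted p of 0.05, Gfpt2 and Gne higher and Gnpnat1 lower, beside 19.8% of all 18193 genes (3601 genes, 11.9% higher and 7.93% lower). Both GFP arrays lay above every untagged array for 3 of the 8, Gfpt2, Nagk and Gne, beside 21% of all genes, and below for 1, Gnpnat1, beside 19.9%, together 4 of 8 beside 40.9%. The 8 genes had a median difference of 0.09, beside -0.05 over all genes. Without carcinoma GFP 0 of the 8 passed (of 861 genes in all), with the fit left with 1 tagged array that is assumed to vary like the others, and without papilloma GFP 1 of the 8 passed (of 1462). Of the called genes over the array 2159 were higher and 1442 lower. These became 1759 and 2442 after each array's median over the 18193 genes was subtracted. Such medians over genes are not the array medians over all probe sets given above. Subtracting them moved the median of all differences from -0.05 to -0.29. Under that step the directions of Gfpt2, Gne and Gnpnat1 stayed, at 1.07, 1.96 and -1.54. The 3 called genes did not share a direction by tag. Gfpt2 and Gne were higher in the tagged arrays and Gnpnat1 was lower. Gfpt1, Pgm3, Uap1, Nagk and Ogt did not pass the test, which does not show that they were unchanged.

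**Figure D4:**
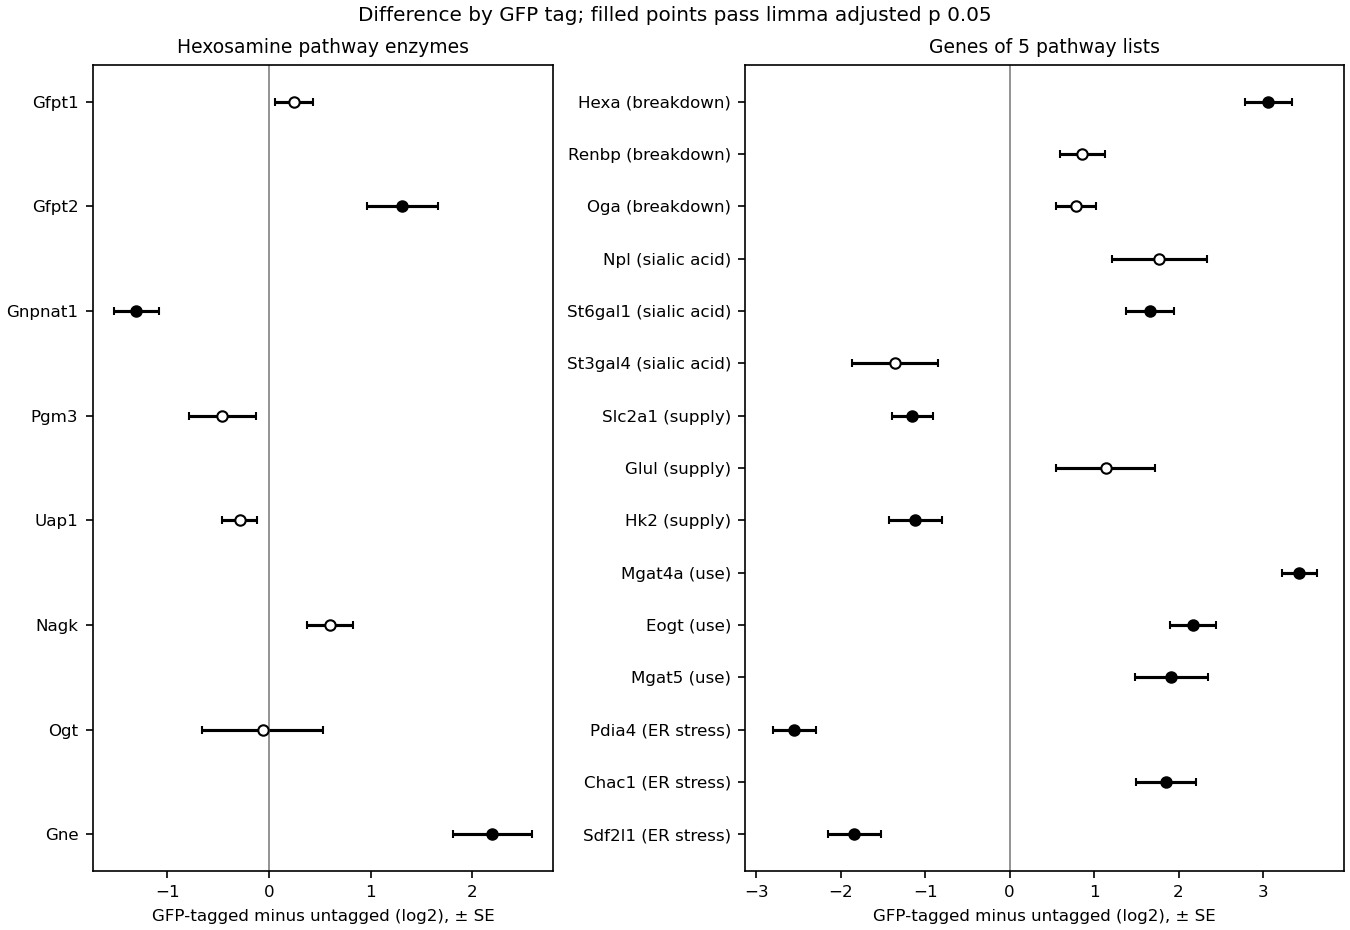
Difference between GFP-tagged and untagged arrays with the tumour type as covariate (log2, x axis, ± SE; 2 and 5 arrays) for the 8 hexosamine genes (left) and for the 3 genes with the largest such difference in each of 5 pathway lists (right), on separate scales. Filled points pass a limma adjusted p of 0.05. Gne, Gfpt2 and Gnpnat1 are filled on the left, and the right side ranges from Mgat4a at 3.43 to Pdia4 at -2.55.

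Genes listed for the use of UDP-GlcNAc were called by tag in 9 of 20 measured, 8 higher and 1 lower, with a median of 0.68. Of all genes 19.8% were called (11.9% higher, 7.93% lower), with a median of -0.05. Not all of the listed genes are enzymes with UDP-GlcNAc as substrate. Among the 8 were Slc35d2, a sugar transporter, and Galnt1, which uses a different donor sugar, both named after their values were seen. Mgat4a, which adds a branch to N-glycans, read 9.46 to 9.54 in the GFP arrays and 5.89 to 6.46 without the tag, higher by 3.43 (SE 0.20, limma adjusted p = 0.000127). Eogt, which puts O-GlcNAc on secreted proteins, rose by 2.17 (SE 0.27, limma adjusted p = 0.00249). Mgat5, a further branching enzyme, rose by 1.92 (SE 0.43, limma adjusted p = 0.0239). The call of Mgat5 was lost without carcinoma 1, carcinoma GFP or papilloma GFP (limma adjusted p of 0.0503, 0.231 and 0.146). The 1 lower gene was Mgat2, another branching enzyme, at -1.29, named after its value was seen. Of these 20 genes 3 passed without carcinoma GFP and 4 without papilloma GFP, all of them higher.

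Genes that supply the pathway were called in 2 of 7 (28.6%, beside 19.8% of all genes), both lower, although the median of the list was 0.56. Slc2a1, the main glucose transporter of keratinocytes, read 11.28 and 11.73 in carcinoma GFP and papilloma GFP against 12.31 to 13.03 elsewhere, a difference of -1.15 (SE 0.24, limma adjusted p = 0.0183). Hk2, a hexokinase, differed by -1.11 (SE 0.31, limma adjusted p = 0.0482). Without either GFP array neither gene passed, and Hk2 also missed the threshold without carcinoma 1, 2 or 3 or papilloma 1 (limma adjusted p of 0.0935, 0.0924, 0.0797 and 0.0786). Glul, the glutamine synthetase, had values of 11.01 and 9.87 in tagged and untagged arrays (SE of the difference 0.59, limma adjusted p = 0.240).

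Among breakdown genes 1 of 6 was called, or 16.7%, near the 19.8% of all genes. Hexa, a lysosomal hexosaminidase subunit, read 11.62 and 11.03 in carcinoma GFP and papilloma GFP against 7.94 to 8.82 elsewhere, higher by 3.06 (SE 0.28, limma adjusted p = 0.000693). Oga, which removes O-GlcNAc, averaged 10.92 and 10.16 in tagged and untagged arrays (limma adjusted p = 0.0604), and Renbp, which binds renin and interconverts free acetylhexosamines, 7.99 and 7.13 (limma adjusted p = 0.0682). The Oga difference changed sign in 1 of 13 settings, the one that averaged all its probe sets. Of the sialic acid genes after Gne 2 of 9 were called, or 22.2%, also near the 19.8% of all genes, with a median of 0.69. St6gal1, a sialyltransferase, rose by 1.66 (SE 0.28, limma adjusted p = 0.00827), a call lost without carcinoma GFP (1.20, limma adjusted p = 0.155). Nanp, the phosphatase of sialic acid synthesis, was lower at -0.67 and was named after its value was seen. Npl and St3gal4 differed by 1.77 and -1.36 and did not pass (limma adjusted p of 0.0721 and 0.117). Npl passed with dim genes left out (limma adjusted p = 0.0472) and without the tumour type as covariate (limma adjusted p = 0.0480). St3gal4 passed after each array's median over genes was subtracted (limma adjusted p = 0.0376).

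The ER stress list had 7 of 19 genes called, 2 higher and 5 lower, with a median of 0.07, beside 19.8% of all genes called (11.9% higher, 7.93% lower). Pdia4, a folding enzyme of the ER, read 6.88 and 6.69 in carcinoma GFP and papilloma GFP against 8.88 to 9.69 elsewhere, lower by -2.55 (SE 0.26, limma adjusted p = 0.00106). Sdf2l1, an ER chaperone component, was lower at -1.84 (SE 0.31, limma adjusted p = 0.00822), and Chac1, which degrades glutathione, higher at 1.85 (SE 0.36, limma adjusted p = 0.0133). The calls of Sdf2l1 and Chac1 were lost without either GFP array (limma adjusted p of 0.0693 and 0.0548 without carcinoma GFP, 0.101 and 0.146 without papilloma GFP). Of the 19 genes 1 passed without carcinoma GFP and 3 without papilloma GFP.

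Between the tumour types limma called 0 of 18193 genes (0%), with 112 genes at an unadjusted p under 0.05. The contrast was used to choose the hexosamine genes, and nothing is read from that count for them. The carcinoma mean was higher for 7 of the 8, Gfpt1 among them by the choice of the set, with a median difference of 0.27. Over all genes 46.9% had the higher carcinoma mean and the median was -0.02. Without the GFP arrays it was 5 of the 8 with a median of 0.16, and without papilloma 1 it was 7 with a median of 0.42. No gene of the 5 pathway lists had groups that did not overlap. Of the marker genes 1 had, Fbln2 of the fibroblast list, beside 1.42% of all genes. ER stress genes had the higher carcinoma mean in 8 of 19, and genes listed for the use of UDP-GlcNAc in 8 of 20. The same held for sialic acid genes in 4 of 9, supply genes in 3 of 7 and breakdown genes in 5 of 6. The largest differences in those lists were 0.76 for Edem1, which helps to discard misfolded glycoproteins, 0.62 for Ern1, a sensor of ER stress, and 0.60 for Hk2. Edem1 read 9.89, 9.77, 10.26 and 8.97 in carcinoma 1, 2, 3 and GFP and 9.21, 9.09 and 8.58 in papilloma 1, 2 and GFP, so that carcinoma GFP fell among the papilloma arrays. Ern1 was at 0.17 without papilloma 2, and Hk2 at 0.34 without papilloma GFP, 0.95 without carcinoma GFP and 0.99 without papilloma 1. Differences of the others named by rule ran from 0.55 for St3gal6 to -0.55 for Creld2. Single arrays moved both ends, St3gal6 to 0.11 without papilloma 2 and 1.01 without papilloma 1, and Creld2 to -0.13 without carcinoma 3, -0.29 without papilloma GFP and -0.86 without carcinoma GFP.

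The array profile of Gfpt1 was closest to those of B630019K06Rik, Cpe and Smarcad1, with root mean square distances of 0.12, 0.14 and 0.15 log2 units after each gene was centred on its mean over the 7 arrays. The deviation of Gfpt1 itself was 0.32 on that measure and the median distance to all other genes 0.48. These genes differed between carcinoma and papilloma by 0.34, 0.38 and 0.51, which follows from picking them for closeness to Gfpt1. B630019K06Rik read 4.345 to 5.14, below the median of every array. For Cpe papilloma 1 (12.41) lay above carcinoma 2 (12.35). The profile of Gfpt2 was closest to those of Prokr2, Hhipl1 and Tmem100, at distances of 0.13, 0.13 and 0.14, where Gfpt2 itself deviated by 0.70. All 3 read highest in carcinoma GFP, at 6.26, 7.58 and 6.10, and next highest in papilloma GFP, at 5.01, 6.26 and 4.86. This order too follows from how they were picked.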

How the data were processed

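The deposited table holds log2 values of 45101 probe sets on 7 arrays, from 2.72 to 14.51. Per the labels' protocols the authors normalized the arrays with RMA, and affy is named beside it in the submitters' processing notes. No version or chip definition is given in the sources used here, nor the set of arrays that RMA was run on. The log2 scale was read from the values, and the upper quartiles differ, so the arrays do not share 1 distribution. The platform annotation (2016) was updated through RefSeq (GRCm38.p6, names and promoter windows only). It names 1 gene for 34945 probe sets that are not controls, several genes for 932 and none for 9211. These last counts include some of the 64 control probe sets, which were not used as genes. Each gene took its probe set with the highest mean, which gave 18193 genes, and no filter on dim genes was used.

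Contrasts were fitted with limma 3.58.1 (R 4.3.3, lmFit and eBayes) over all genes with Benjamini-Hochberg adjustment and tested on simulated data first. They were carcinoma against papilloma, and tagged against untagged arrays with the tumour type as covariate. A tumour type by tag interaction was fitted as well. The members and lists were chosen with earlier results of these data known. Of 111 listed genes 107 had a probe set, and the rest were not analysed here. Named were all 8 members, the 3 genes per pathway list with the largest difference in each contrast, and the 3 closest profiles to Gfpt1 and Gfpt2. Deviations from group means correlated at 0.476, 0.194 and 0.861 for arrays of equal label (1, 2, GFP) across genes, and at up to 0.683 for unequal labels, so the labels cannot be shown to mark pairs. Precision is limited by how few arrays there are. Figures used matplotlib 3.10.9 in Python 3.11.15.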

Additional observations from a re-analysis of the deposited data

Results flagged for a closer look

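Gfpt2 read 7.88 in carcinoma GFP, far from the other carcinoma arrays, of which the next read 5.89. Nagk read 7.85 in papilloma 2, far below the other untagged arrays, of which the next lowest read 8.52. Each gap exceeds Dixon's limit for groups of 4 and 5 arrays, and 16 groups were examined, some of which share arrays. Chance passes that limit in about 1 of 20 groups of like arrays. The carcinoma group mixes the GFP array with untagged ones, so this rate cannot be taken over for Gfpt2, whose gap is also a difference by tag.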

How the results depend on the processing

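Between carcinoma and papilloma 0 genes were called in every setting, the replicate block included, where 500 had an unadjusted p under 0.05. The smallest adjusted p lay near 1 throughout, so this count says nothing about stability. The Gfpt1 difference was 0.43 to 0.63 when 1 array was left out. With the block it was 0.59, the same value as without carcinoma 3, the only array with its label. Since the groups of Gfpt1 were chosen not to overlap, its sign could not turn there. Gfpt2, Gnpnat1 and Gne changed sign between tumour types in 8 of their settings, among them those without the GFP arrays for Gfpt2 (-0.23) and Gnpnat1 (-0.07). The count called by tag, 3601, was 1710 in the carcinoma arrays alone and 169 in the papilloma arrays alone, and ran from 861 to 3955 when 1 array was left out. Of 102 settings of the 8 genes by tag 14 lost a call and 0 turned a called direction. Only Gfpt2, Gnpnat1 and Gne had a call to lose, and they lost it in 6 of 12, 4 of 13 and 4 of 12 settings. For each of these genes both GFP arrays lay outside the range of the untagged arrays. Leaving out an array or a tumour type therefore could not turn their direction, and nothing is read from that 0. Gfpt2 and Gne were not tested once dim genes were left out. Of 337 settings of the named pathway genes by tag 40 lost a call and 9 gained one. Those 337 also include settings of genes that had no call to lose. The cause of these changes was not tested, and fits that left out arrays also rested on fewer of them.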
